A study of Homo sapiens with 6 samples.

Results

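RNU12, RNU5B-1 and RNU2-2 encode U12, U5 and U2, small nuclear RNAs (snRNAs) of the spliceosome, and they are the U snRNA genes examined here for binding by LARP1 and for their level. They are 3 of 19351 named genes in the mRNA-seq table and were chosen by name, because of the binding signal that LARP1 shows on them. Their PAR-CLIP values are therefore given as a description, with no test. The table holds 4 accessions for them: NR_029422.1 for RNU12, NR_002757.3 for RNU5B-1, and NR_002716.3 and NR_002761.2 for RNU2-2. In the site lists they account for 4 of 3948 sites under growing conditions and 4 of 3947 after PP242. RefSeq assigns NR_002716.3 to RNU2-1, a near-identical U2 gene, so the U2 values are those of the accession that the table calls RNU2-2.

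LARP1 is a La-related RNA-binding protein that acts downstream of the mTOR complex 1 kinase on mRNAs of the translation machinery. The study crosslinked endogenous LARP1 to RNA in HEK293T, an embryonic kidney line of human origin expressing SV40 large T antigen, and sequenced the bound fragments (PAR-CLIP), with 1 library from growing cells and 1 from cells in which mTOR was inactivated with 2.5 µM PP242, an mTOR kinase inhibitor. Both PAR-CLIP cultures were labeled with 100 µM 4-thiouridine (4sU) for 14 hr and irradiated with 150 mJ/cm2 of ultraviolet light, and the fragments were cut with RNase T1, which cleaves after G. In parallel, 4 mRNA-seq libraries without 4sU were made, 2 from growing cells and 2 from PP242-treated cells, and their labels call them biological duplicates. With 1 PAR-CLIP library per condition no difference in binding has a replicate check. The series holds no control immunoprecipitation, so the signal of a site is not an enrichment over a control.

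U snRNAs are short, abundant, noncoding RNAs of the nucleus. Most are exported to the cytoplasm, where the SMN complex loads a ring of Sm proteins on a U-rich Sm site, and then return to the nucleus as snRNPs. U2 pairs with the branch point of the intron in the major spliceosome, and U12 takes that role in the minor spliceosome, which removes a small class of introns. U5 serves in both spliceosomes, and its loop 1 holds the exon ends during splicing. U6 differs from these: it is made by RNA polymerase III, carries LSm proteins in place of the Sm ring, and stays in the nucleus.

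The sequences below are RNA letters under LARP1 sites on U12 and U2, written as DNA from GRCh37, and are shown because the sites fall in different functional parts of these RNAs. RNU12 lies at chr22:43011250-43011399 on the plus strand (150 nt), placed by alignment of the annotated copy RNU12-2P (90.9% identity). It lies in an exon of a GENCODE lncRNA and, on the opposite strand, inside an annotated coding gene outside its exons. RNU5B-1 lies on chromosome 15, with no other gene overlapping. RNU2-2P, the GENCODE name of the chromosome 11 gene to which the name RNU2-2 belongs, lies at chr11:62609091-62609281 on the minus strand (191 nt), within an exon of WDR74 on the same strand. The sequence of NR_002716.3 itself was not read, so the U2 letters are those of RNU2-2P at the deposited positions. In the RNU12 line and in the last line the capitals mark T, the base at which 4sU can crosslink. In the other line they mark the GTAGTA with which U2 pairs with the branch point.
RNU12 nt 101–125, chr22:43011350-43011374: caaggTgacccgccTacTTTgcggg
RNU2-2P nt 31–57, chr11:62609225-62609251: gtGTAGTAtctgttcttatcagtttaa
RNU2-2P nt 140–163, chr11:62609119-62609142: acTccacgcaTcgaccTggTaTTg

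The RNU12 site covered nt 101–124 of NR_029422.1. The RPKM steps give that accession a length close to 149 nt, 1 nt under the 150 nt of the present RefSeq entry, so the stretch is printed with 1 nt more than the site. Between the Sm site core (ATTTTTG, nt 75–81) and the site are 19 nt. The stretch holds an inverted repeat, CCCGC at nt 109–113 and GCGGG at nt 121–125, with 7 nt between the arms. In the minor spliceosome the 3′ stem-loop of U12 is the part bound by RNPC3, a protein of the U11/U12 particle. The branch point pairing motif AAGGAA, at nt 20–25, lies outside the site.

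In RNU5B-1 the main site covered nt 28–51 and contained loop 1 whole. A second site under growing conditions covered nt 58–75, 12 nt before the Sm site core (ATTTTTTG, nt 88–95). In U2 the site shared by both conditions covered nt 5–57, which in RNU2-2P contains GTAGTA (nt 33–38). That motif was present in 0.457% of 30838 windows of 24 nt from GENCODE small RNAs, read on the RNA strand, and the site is longer than such a window. The site listed after PP242 only, nt 140–163, starts 34 nt after the Sm site core of RNU2-2P (nt 99–105). None of these sites covered an Sm site core. Among 5405 small RNAs 2.68% held ATTTTTG and 0.796% held ATTTTTTG.

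**Figure D1:**
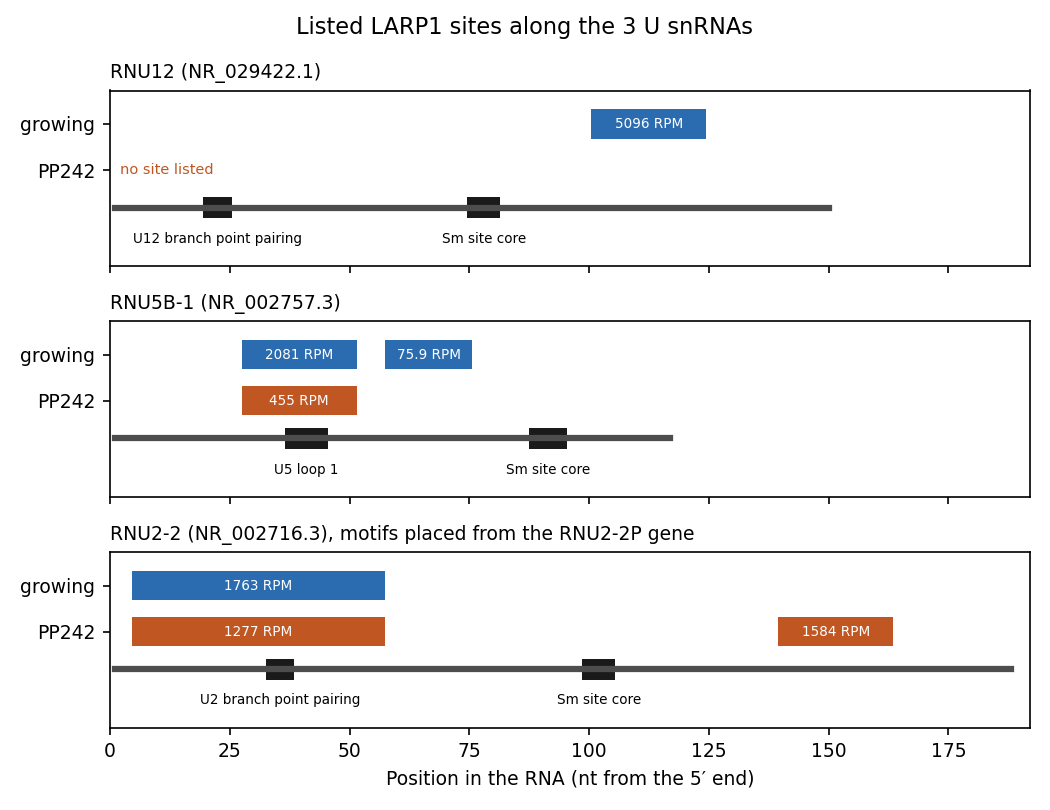
Listed LARP1 sites along the 3 U snRNAs, by position in the RNA (nt from the 5′ end), with growing cells in blue, PP242-treated cells in orange and site RPM written in the bars; black boxes on the grey RNA line mark motifs. The RNU12 site (5096 RPM) and the U2 site at nt 140–163 (1584 RPM) lie 3′ of the Sm site core, while the RNU5B-1 and U2 sites listed under both conditions lie 5′ of it.

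Binding is given as RPM, the reads of a site scaled to the mapped reads of its library. U12 carried the strongest noncoding site under growing conditions. Its site had 5095.57 RPM, the highest of 234 distinct noncoding RPM values and the 18th highest of all 629 distinct values. It held 0.890% of the RPM of the list, a total in which values listed on several transcripts or copies are repeated. After PP242 no site on RNU12 was listed. A list gives only the sites that the authors kept, so the signal of U12 after PP242 is not known, and no ratio is given. Among all genes with at least 1 RPM in either library, 22.7% reached 1 RPM in growing cells and lacked a PP242 site, and among noncoding genes 15.1%. The reverse pattern held for 54.3% of all genes and 48.4% of noncoding genes. Noncoding genes here are genes with a listed site on a noncoding transcript, summed over all their transcripts. Some protein-coding genes, such as RPL4 and SRSF3, are therefore among them. Copies that list the same values, such as SNORD3A and SNORD3C, count as separate genes, so the shares of noncoding genes are not shares of independent signals. The next sums of such genes outside ribosomal RNA under growing conditions were 3396 RPM on NR_047688.1 and 2165 RPM on MMAB. The former has no name in the sources used here, and the MMAB sum was not limited to its noncoding transcript.

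A U5 site that contains loop 1 was listed in both libraries, with more RPM under growing conditions. The site at nt 28–51 of RNU5B-1 had 2080.74 RPM under growing conditions and 455.443 RPM after PP242, a ratio of 4.57. The second site, at nt 58–75, had 75.9 RPM under growing conditions, 3.52% of the gene's sum, and was not listed after PP242. Summed over sites RNU5B-1 had 2157 RPM under growing conditions and 455 RPM after PP242, a log2 ratio of 2.24. Of all 741 genes with at least 1 RPM in either library, 31.6% were at least 2-fold higher under growing conditions and 65.2% at least 2-fold higher after PP242. Among noncoding genes these shares were 27% and 65.9%.

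U2 was bound in both libraries, with the larger sum after PP242. The site at nt 5–57 had 1762.72 RPM under growing conditions and 1277.25 RPM after PP242, a ratio of 1.38. The site at nt 140–163 was listed after PP242 only, with 1583.88 RPM, 55.4% of the U2 signal in that library. The same RPM is listed for the second U2 accession, NR_002761.2, at nt 92–115, whose register was not checked, and was counted once. The sums were 1763 RPM under growing conditions and 2861 RPM after PP242, 1.62-fold higher after PP242 and within 2-fold. RNU12 made up 56.5% of the listed RPM of the 3 genes under growing conditions, and U2 made up 86.3% after PP242, where no RNU12 site was listed. The main sites on the 3 RNAs thus ranked U12, U5, U2 by RPM under growing conditions and U2 before U5 after PP242, and without replicates the error of this order is unknown.

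**Figure D2:**
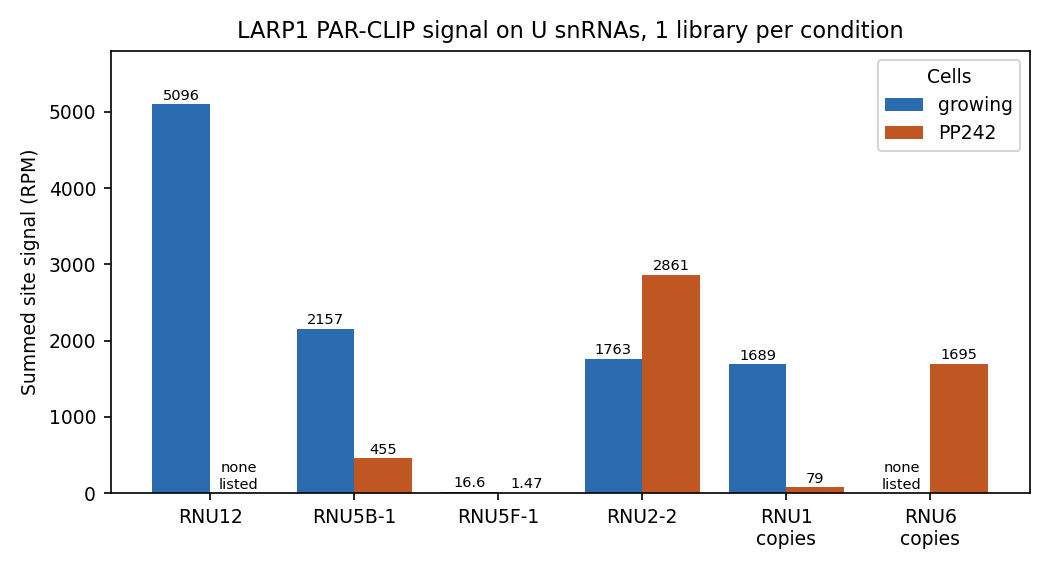
Summed LARP1 site RPM (y axis, linear from 0) on 6 U snRNA genes or groups of copies, for the growing library in blue and the PP242 library in orange, with 1 library per condition and no error bars. RNU12 has 5096 RPM in growing cells and none listed after PP242, and RNU2-2 has 1763 and 2861 RPM. RNU6 copies have a signal only after PP242, summed over entries whose sites overlap in position.

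The deposited lists also hold a column named for T-to-C conversion, the mark of a crosslinked 4sU in PAR-CLIP reads. Its unit is not given in the sources used here. In 43.7% of sites of at least 1 RPM under growing conditions and 67.0% after PP242 it was within 1% of a fixed multiple of RPM, 25.8 and 28.32. The RNU12 site was at 99.9% of that multiple. Both RNU5B-1 sites under growing conditions were at 100.003%, and the loop 1 site was at 99.96% after PP242. The U2 site at nt 5–57 was at 99.99% and 99.8%, while the PP242 site at nt 140–163 was lower, at 79.4%. For contrast, the U1 site was at 6.49% under growing conditions and at 220% after PP242, so the column is not simply a share of reads.

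The U5 signal cannot be assigned to RNU5B-1 alone. The same RPM values are listed at nt 26–49 of RNU5D-1 and RNU5E-1, and the 24 letters of the site occur without a mismatch in all 5 U5 genes examined, starting at nt 28 of each GENCODE transcript. RNU5F-1 nevertheless had a separate site of far lower RPM over the loop, at nt 24–50, with 16.6 RPM under growing conditions and 1.47 RPM after PP242. Its ratio, 11.3, has the direction of the RNU5B-1 ratio. Deposited positions on RNU5D-1 and RNU5E-1 are 2 nt lower than in GENCODE, and those on RNU5F-1 were not checked. The site at nt 58–75 has the same RPM on RNU5A-1, which shares its 18 letters, whereas RNU5D-1, RNU5E-1 and RNU5F-1 do not hold them.

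The other U snRNAs of the spliceosome showed both patterns. U1, which recognises the 5′ splice site, was listed on 9 accessions with the same site at nt 76–106, with 1689 RPM under growing conditions and 79.0 RPM after PP242. U6 had no site under growing conditions. After PP242 the RNU6 copies carried sites of 524 RPM at nt 15–32, 574 RPM at nt 84–107 and 598 RPM at nt 81–106. The sites of 574 and 598 RPM overlap in position but are listed on different RNU6 entries, which held 1097 and 1122 RPM. The sum of 1695 RPM over distinct values therefore counts both. RNU6-15 shared the 524 RPM value and RNU6-42 the 574 RPM value. Of 25 U snRNA accessions in the mRNA-seq table, 6 had no site in either list: RNU4-1, RNU4-2, RNU11, RNU4ATAC, RNU6ATAC and RNU7-1. U12 was thus listed without U11, its partner in the minor spliceosome, and U5 and U6 without U4, with which they form the tri-snRNP. U7, which serves histone mRNA processing and not splicing, was among those without a site.

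RNU12, RNU5B-1 and RNU2-2 together held 6.26% of the RPM on noncoding RNAs under growing conditions and 2.19% after PP242. Most noncoding RPM lies on ribosomal RNA, whose sites are listed again on its precursor. Without ribosomal RNA the shares were 28.6% and 6.60%. With each distinct RPM value counted once they were 9.19% and 3.13%. Every form of the share was higher under growing conditions, but the PP242 shares count RNU12 as 0 RPM, although its signal there is not known. RNU12 made up 56.5% of the growing RPM of the 3 genes, so the size of this difference cannot be read from the lists. The other U snRNAs summed to 3875 and 2414 RPM, of which 2081 and 455 RPM are the RNU5B-1 values listed again on its copies. Without these repeated values their sum was the larger after PP242, but only with both overlapping U6 sites, of 574 and 598 RPM, counted. Ribosomal RNAs went both ways. The 5.8S ribosomal RNA was higher under growing conditions, with 6056 and 3178 RPM, as was the precursor, with 67368 and 57956 RPM. The 5S copies, with 803 and 1120 RPM, and RNA5S9, with 385 and 475 RPM, were higher after PP242. The 28S values were close, at 37791 and 38649 RPM. The classes 7SL, Y, vault and snoRNA were higher after PP242. 7SL RNA, of the signal recognition particle, had 1444 RPM under growing conditions and 4658 RPM after PP242. Y RNAs had no site under growing conditions and 4710 RPM after PP242, and vault RNAs none and 1469 RPM. U3, a nucleolar RNA that guides rRNA processing, had 62.3 and 545 RPM, and the other snoRNAs 394 and 2704 RPM.

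As genes with a pattern like each member, the noncoding genes of at least 100 RPM, ribosomal RNA excluded, were ranked by how near their growing share of the RPM of both libraries came to that of the member. This rests on 2 libraries. For RNU12, with a share of 100%, 8 of 81 candidates had no PP242 site either, the highest being NR_047688.1, GTSE1-DT (1849 RPM) and NR_002933.1 (769 RPM). For RNU5B-1, at 82.6%, the nearest were its copies RNU5D-1 and RNU5E-1 at 82.0%, then ACTG1 at 78.3%. The ACTG1 value is a sum over all its transcripts with a site and was not limited to its noncoding transcript. For RNU2-2, at 38.1%, the nearest were XR_109601.1 and XR_112141.1, which list the same values and stood at 45.8%.

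**Figure D3:**
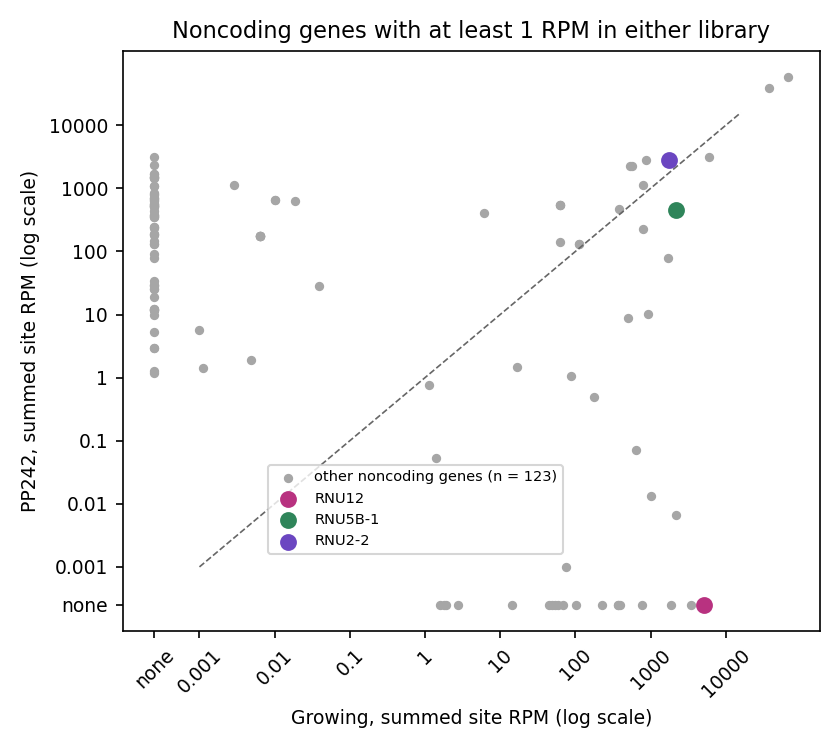
Summed site RPM of noncoding genes with at least 1 RPM in either library, growing (x axis) against PP242 (y axis), both on log scales with a separate position for genes with no listed site; the dashed line marks equal RPM and the points at upper right are ribosomal RNA. Noncoding genes are those with a site on a noncoding transcript, summed over all their transcripts. RNU12 is the gene furthest right among those with no PP242 site, RNU5B-1 lies below the line and RNU2-2 just above it.

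The base content of the sites was set beside the rest of each RNA, since the study describes LARP1 sites on mRNAs by their pyrimidines. At nt 101–124 of RNU12 54.2% of bases were pyrimidines against 46.03% in the rest, and at nt 102–125, the other possible register, 50.0% against 46.8%. The loop 1 site of RNU5B-1 had 58.3% pyrimidines against 55.9% in the rest of U5. It held 9 T in 24 nt and only 8.33% G, against 21.5% in the rest. The second RNU5B-1 site was poorer in pyrimidines than the rest, with 33.3% against 60.6%. In RNU2-2P nt 5–57 had 60.4% pyrimidines against 51.4%, and nt 140–163 had 58.3% against 53.3%. The pyrimidine content was thus higher in the site than in the rest at 4 of the 5 sites, with no test. Only 5 distinct sites on 4 other small noncoding RNAs could be placed on a sequence of matching length. Their median was 58.1% (range 41.4% to 62.5%), and 4 of these 5 also held more pyrimidines than the rest of the RNA.

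Levels of the 3 RNAs come from the mRNA-seq libraries in RPKM, reads scaled to RNA length and to the mapped reads of the library. The labels give their molecule as polyA RNA, and snRNAs carry no polyA tail, so these values are no measure of the cellular amount. The steps between low RPKM values give the reads behind them, with 87.3% to 90.9% of small-RNA values under 20 reads lying within 0.05 of a whole read, and and depths of 32.9 M to 34.9 M mapped reads (M, mega). RNU12 was at 0.204 and 0.192 RPKM in growing cells and at 0.197 and 0 RPKM after PP242, which is 1 read in each of 3 libraries and none in the last. RNU5B-1 was at 0.130 and 0.122 RPKM in growing cells and at 0.751 and 0 RPKM after PP242, or 0.5, 0.5, 3 and 0 reads, since reads that match several copies were divided among them. Neither RNA passed the filter of a mean of 1 RPKM, and at this depth no difference was detectable.

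NR_002716.3, the first U2 accession, was at 4.44 and 3.28 RPKM in growing cells and at 5.06 and 5.87 RPKM after PP242. The 2 conditions did not overlap, as was so in this direction for 28.5% of all transcripts tested. These values stand for 27.5, 21.5, 32.5 and 38.5 reads. The means were 3.86 ± 0.826 RPKM (SD, n = 2) and 5.47 ± 0.572 RPKM (SD, n = 2), 1.42-fold higher after PP242. On the log2(RPKM + 1) scale the difference was 0.42 (standard error 0.12), and it did not pass the threshold (limma, Benjamini-Hochberg adjusted p = 0.0807 over 21014 transcripts). Without growing replicate 1 it passed, with a difference of 0.59 and a limma adjusted p of 0.025, the lowest over the alternatives, which reached 0.264. So 0 of the 1 accession tested was called, beside 3.48% of all transcripts called higher and 6.45% called lower after PP242, while its unadjusted limma p was 0.0118. The second accession, NR_002761.2, was at 0.330 and 0.519 RPKM in growing cells and at 0.530 and 0.520 RPKM after PP242, under the filter. In these bulk libraries a change in RNA per cell and a change in the share of cells with the RNA cannot be told apart.

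**Figure D4:**
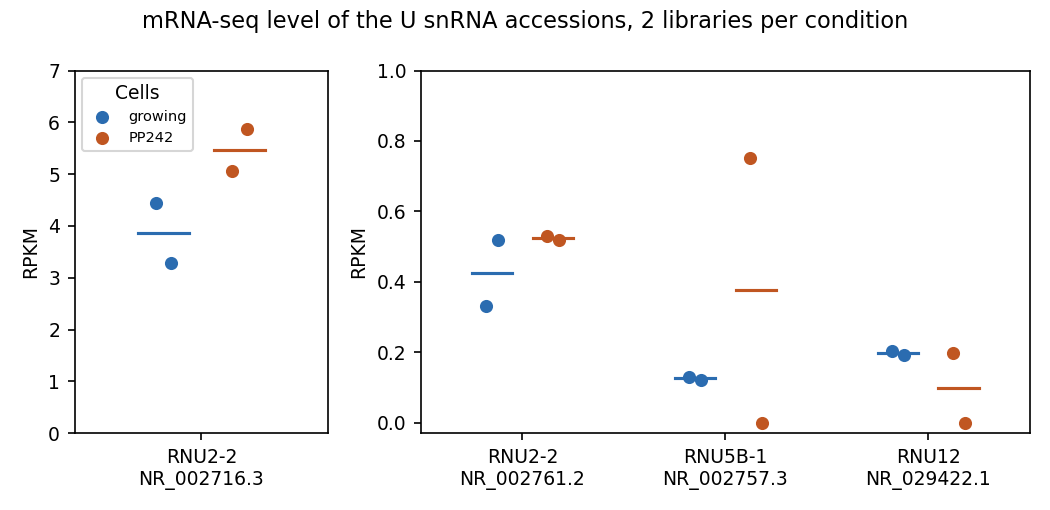
mRNA-seq level (RPKM, y axes differ between panels) of the 4 accessions in growing (blue) and PP242-treated (orange) cells; points are the 2 libraries of each condition and lines their means. NR_002716.3 lies between 3.28 and 5.87 RPKM with the PP242 libraries above the growing ones (as for 28.5% of all transcripts tested), and the other 3 accessions stay at or under 0.751 RPKM in every library.

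The deposited lists also give site RPM divided by the RPKM of its transcript and multiplied by 1000. For RNU12 this gave 2.57417e+07, the highest finite value among noncoding sites under growing conditions and the third highest of all. The RPKM below it rests on 1 read per library. For RNU5B-1 the loop 1 site had 1.65073e+07 under growing conditions and 1.21241e+06 after PP242, with 0 to 3 reads per library below it. On this scale the log2 ratio of growing to PP242 was 3.82 for RNU5B-1 in place of 2.24, and for RNU2-2 it was -0.20 in place of -0.70. The PP242 site that both U2 accessions list has the value 289629 on NR_002716.3 and 3.01691e+06 on NR_002761.2, and with the latter the RNU2-2 ratio was -2.83.

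Other RNAs of U snRNA families were also low in the mRNA-seq libraries. Condition means ran from 0 to 0.653 RPKM under growing conditions and from 0.0983 to 1.05 RPKM after PP242 in the U1, U4, U5, U11, U12, U4atac, U6atac and U7 families. The U6 accessions were higher, at 3.31 to 8.38 RPKM under growing conditions and 3.52 to 9.04 RPKM after PP242. Over all families 14 of 18 distinct values had the higher mean after PP242, beside 49.6% of all 38438 transcripts, with most resting on few reads. U12, RNU5A-1, RNU4-1 and RNU6ATAC had the lower mean. The mRNA of LARP1 itself (NM_015315.3) was at 54.0 and 55.4 RPKM in growing cells and at 53.5 and 53.7 RPKM after PP242, a log2 difference of -0.03 (limma adjusted p = 0.479).

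The proteins that build, load and use these RNAs were followed in 8 gene lists with 148 transcripts of 90 genes past the filter. After PP242, 12 transcripts of 10 genes fell and 1 rose, which is 8.11% and 0.676% of the lists, beside 6.45% lower and 3.48% higher among all 21014 transcripts (limma with Benjamini-Hochberg adjustment, threshold 0.05). At an unadjusted p under 0.05 the counts were 24 lower and 7 higher of 148, where 16.1% and 11.9% of all transcripts passed. The median log2 difference was -0.0089 over the lists and -0.0013 over all transcripts. Without the filter on low values 1 list transcript was called lower, GEMIN4, and 0 higher (7 higher at an unadjusted p under 0.05 by limma). With any 1 library left out 6 to 7 were called lower and 0 higher (4 to 10 higher at an unadjusted p under 0.05).

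Counted by gene, 8.29% of all 12605 genes tested had a transcript called lower and 4.2% one called higher. Assembly and transport factors held 5 of the genes that fell, of 19 expressed. GEMIN4, of the SMN complex that loads the Sm ring, fell the most, from 31.4 and 30.7 RPKM in growing cells to 23.0 and 22.9 RPKM after PP242, a log2 difference of -0.42 (standard error 0.026, limma adjusted p = 0.00129). DDX20, the helicase of the same complex (GEMIN3), fell from 21.5 and 20.3 RPKM to 17.5 and 17.2 RPKM, a log2 difference of -0.26 (limma adjusted p = 0.0108). GEMIN6, the export adaptor PHAX and the cap hypermethylase TGS1 fell as well, by log2 differences of -0.17 to -0.20. Their limma adjusted p-values were nearer the threshold, at 0.0495, 0.0270 and 0.0424. None of the 19 genes rose at this threshold, nor at an unadjusted limma p under 0.05 (0 transcripts).

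In the minor spliceosome list, 2 of 10 genes fell and 1 rose, where 8.29% and 4.2% of all genes did. SNRNP35, of the U11/U12 particle, fell from 6.67 and 7.26 RPKM to 5.65 and 5.49 RPKM, a log2 difference of -0.28 (limma adjusted p = 0.0183), and its second transcript fell by 0.25 on the log2 scale. Without growing replicate 2 or PP242 replicate 2 the first transcript had limma adjusted p-values of 0.0563 and 0.0578. SCNM1 fell in 2 transcripts by log2 differences of -0.15 and -0.18. TXNL4B, a relative of the U5 protein TXNL4A that was placed in this list, was the only list gene that rose. It went from 3.15 and 3.04 RPKM to 3.59 and 3.76 RPKM, a log2 difference of 0.19 (limma adjusted p = 0.0359). That call was lost with any 1 library left out, at limma adjusted p-values of 0.066 to 0.130.

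The U2, U5 and transcription lists held 1 gene each that fell, near the 8.29% of all genes. In the U2 list 1 of 12 genes fell, SF3B4, a protein of the SF3b complex that contacts the branch point region, from 58.0 and 54.4 RPKM to 46.2 and 47.7 RPKM, a log2 difference of -0.25 (limma adjusted p = 0.0142). In the U5 and tri-snRNP list 1 of 16 genes fell, TXNL4A, a U5 protein, by 0.13 on the log2 scale. INTS5, of the Integrator complex that cleaves snRNA precursors, was the one gene of 17 in the transcription list that fell, from 13.7 and 13.5 RPKM to 10.3 and 11.1 RPKM, a log2 difference of -0.32 (limma adjusted p = 0.00823). No transcript of the Sm ring (9 tested), the LSm ring (10 tested) or the U1 proteins (4 tested) was called by limma, and at an unadjusted p under 0.05 the LSm list had 2 lower and the others 0. Without the filter on low values SNRNP35, DDX20, SF3B4, INTS5 and TXNL4B had limma adjusted p-values of 0.0841 to 0.136.

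**Figure D5:**
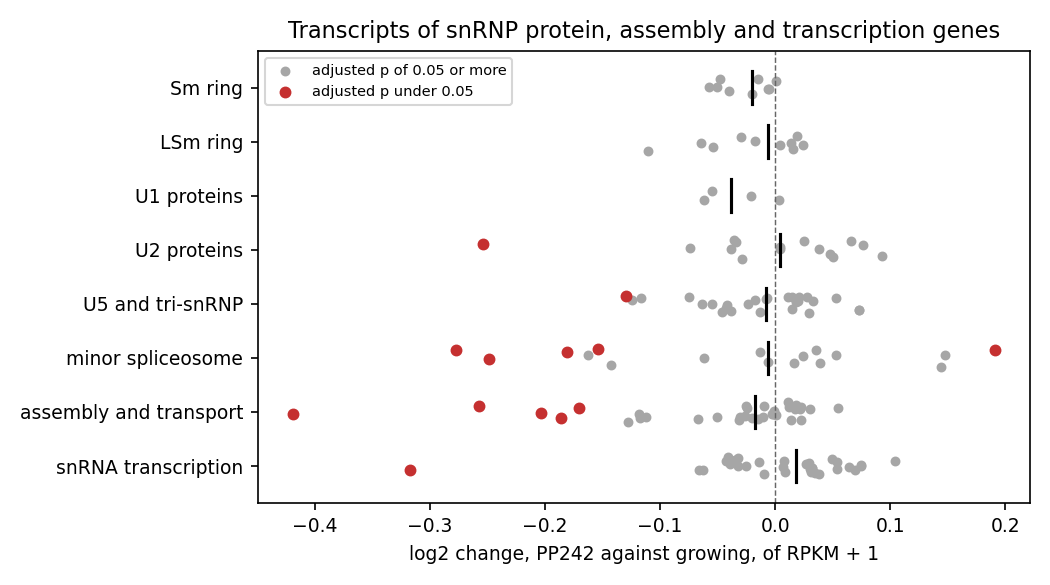
log2 difference of RPKM + 1 after PP242 against growing cells (x axis) for 148 transcripts in 8 gene lists (y axis, points spread vertically within a list); red points have a limma adjusted p under 0.05 and black ticks mark list medians. The 12 transcripts that fell lie between -0.42 and -0.13 and 9 belong to the assembly and minor spliceosome lists, and the 1 that rose is at 0.19.

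The mRNAs of these proteins were listed about as often as other mRNAs. Of the 90 expressed genes, 1 had sites of at least 1 RPM under growing conditions (1.11%) and 3 after PP242 (3.33%), beside 1.78% and 3.85% of 10670 expressed mRNA genes. SNRNP200, the helicase of the U5 particle, had 965 RPM under growing conditions, nearly all in a CDS site at nt 3232–3258 of NM_014014.4, and none listed after PP242. SNRPB, a protein of the Sm ring, had 918 RPM in 3 sites after PP242, the strongest with 468 RPM in the CDS, and none under growing conditions. SMN1 and SMN2, the near-identical genes of the SMN protein, listed the same 119 RPM in the 3′UTR after PP242 and could not be told apart. The genes WDR74 and POLDIP3, which overlap or neighbour the loci of RNU2-2P and RNU12, had no site in either list.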

How the data were processed

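Alignment was done by the authors with Bowtie (version not given in the sources used here) against transcripts of GRCh37. Of the PAR-CLIP reads, those with up to 2 T-to-C changes were grouped by overlap and smoothed with a Gaussian, and a group needed 1 converted read to be kept. The authors deposited RPM for each site, 1000 times its ratio to transcript RPKM, and a T-to-C value of unstated unit, taken here as a deposited score. In mRNA-seq only perfect matches counted, a read with several equal matches was split among them, and the authors deposited RPKM for each library.

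Here 1273 repeated lines were dropped, leaving 38438 transcripts. Accessions listed under several U snRNA or 5S names were treated as copies. RPM was summed per gene over distinct values. Transcripts averaging 1 RPKM or more entered limma 3.58.1 (R 4.3.3, moderated with a trend) as log2(RPKM + 1). The Benjamini-Hochberg threshold was 0.05. Folds on this scale understate changes of low RNAs. The step was tested on simulated data. No count test was run on RPKM. Sequences come from GRCh37 and GENCODE, with blastn 2.17.0 for RNU12, and RefSeq lengths from a GRCh38 table. Other steps used Python 3.11.15.

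The U snRNA genes, gene lists, motifs and tests were chosen with earlier results of these data known. List genes named are the 5 with the largest called change in each direction whose libraries do not overlap, and those with the most site RPM. GEMIN6, PHAX, TGS1, SCNM1 and TXNL4A, the other genes called, were named after their values were seen. Alternatives covered pseudocounts, filters, scaling, a replicate block, left-out libraries, isoforms, copies and units. PAR-CLIP read totals were not used, so no counting error is given for sites. Some U5 sequences and sites are not reported here.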

Additional observations from a re-analysis of the deposited data

How the results depend on the processing

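With 1 PAR-CLIP library per condition and 0 to 3 reads behind RNU12 and RNU5B-1 in mRNA-seq, depth limits every ratio for these RNAs. Restricted to noncoding genes as defined above, 34 were at least 2-fold higher under growing conditions and 83 after PP242, of 126. The log2 ratio of growing to PP242 was 3.82 for RNU5B-1 and -0.20 for RNU2-2 with RPM normalized to RPKM (-2.83 for RNU2-2 with the RPKM of the second U2 accession, chosen after seeing the data), and 2.11 and -0.66 with the T-to-C column, whose multiple of RPM differs between the libraries. The shares of noncoding RPM were 28.6% and 6.60% without ribosomal RNA and 9.19% and 3.13% with each value counted once, under growing conditions and after PP242. Minimum RPM left the other PAR-CLIP values within 1.5 times. Total scaling and choice of accession could hardly change them and are no check. The list totals were nearly equal, at 572790 RPM under growing conditions and 568210 RPM after PP242. RNU5B-1 has a single accession, and the second U2 accession only repeats a value already counted.

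With limma on RPKM, 731 transcripts were higher and 1356 lower after PP242. No filter gave 57 and 63, with 0 list transcripts higher and 1 lower. At a mean of at least 5 RPKM 0 list transcripts were higher (3 at an unadjusted limma p under 0.05), and with median scaling 3. With 1 transcript per gene 468 were higher, of fewer tested. With 1 library left out 310 to 348 were higher and 553 to 741 lower, and in the lists 0 to 0 higher and 6 to 7 lower. The lone library is assumed to vary like the others. The cause of the change without a filter was not tested. RNU2-2 (NR_002716.3) kept its direction, from 0.25 without growing replicate 2 to 0.59 without growing replicate 1, and from reads recovered from RPKM, chosen after seeing the data, it was 0.51.

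Same-numbered libraries did not pair (correlation of deviations 0.0401 over 2 pairs). A replicate block gave 716 higher and 1419 lower, 1 and 11 in the lists, and an adjusted p of 0.0938 for RNU2-2 by limma. It changed no call on RNU2-2 or on the 6 list genes with the largest changes.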
